A study of Mus musculus with 24 samples.

Results

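The genes described here encode enzymes that modify and crosslink collagen, together with the chaperone of its folding. They were chosen by symbol, as the rows of the normalized count table named Lox, Loxl1, Loxl2, Loxl3, P4ha1, P4ha2, P4ha3, Plod1, Plod2 and Serpinh1. All 10 were found among the 24239 genes of the table, each in a single row, and no filter on low values was applied before testing. In control hearts, 6 of the 10 were higher after pressure overload than after Sham surgery, where 3.78% of all genes were called higher. P4ha3, 1 of these 6, was close to the limit of detection. In cSirt5-/- hearts none of the 10 passed the same test, where only 0.252% of all genes were called higher. The difference between the genotypes in that response was itself not significant for any of the 10.

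RNA of whole hearts from male mice was sequenced 12 weeks after surgery, with 6 hearts in each of 4 groups. The groups were cSirt5-/- mice after transverse aortic constriction (TAC), control mice after TAC, cSirt5-/- mice after Sham surgery and control mice after Sham surgery. TAC narrows the aorta and loads the left ventricle with pressure, and Sham surgery leaves the aorta open. The comparisons ask what TAC changed in each genotype, what deletion of Sirt5 changed after each surgery, and whether the TAC response depended on genotype.

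Sirt5 encodes a mitochondrial lysine deacylase. The cSirt5-/- mice came from a transgenic Sirt5 line on a C57BL6J background crossed with Myh6-Cre mice, whose recombinase is driven by a promoter of cardiomyocytes. Control mice carried the transgenic Sirt5 allele without the recombinase, so that deletion of Sirt5 and presence of Cre cannot be told apart. The RNA came from all cells of the heart, while the deletion is directed to cardiomyocytes only.

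Collagen chains are modified while they are made in the endoplasmic reticulum. Prolyl 4-hydroxylases hydroxylate proline residues, which makes the triple helix stable at body temperature, and lysyl hydroxylases hydroxylate lysine residues that later carry sugars and crosslinks. The chaperone HSP47, the product of Serpinh1, binds the folded helix on its way out of the cell. Outside the cell, lysyl oxidases oxidise lysine and hydroxylysine, from which the covalent crosslinks of collagen and elastin fibres form. In the heart these genes are known mainly from fibroblasts and other cells of the interstitium, and crosslinked collagen is a known determinant of myocardial stiffness.

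Promoters are shown for 3 members that were higher after TAC in control hearts, since P4ha1 is a textbook target of hypoxia-inducible factors. Loxl1 and Loxl3 are shown beside it, and no such claim is made for them. Each window holds the 250 bases before the start of the canonical GENCODE transcript in GRCm39, written 5′ to 3′ on the strand of the gene. Capitals mark ACGTG or GCGTG, the core letters of the hypoxia response element, searched on both strands, where a CACGTG counts on each strand.
P4ha1, chr10:59158842-59159091, strand +: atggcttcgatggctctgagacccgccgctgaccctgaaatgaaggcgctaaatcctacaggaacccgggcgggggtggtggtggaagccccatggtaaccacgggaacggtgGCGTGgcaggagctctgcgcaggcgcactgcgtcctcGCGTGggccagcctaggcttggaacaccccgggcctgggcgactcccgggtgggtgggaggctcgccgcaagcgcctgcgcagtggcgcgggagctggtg
Loxl3, chr6:83010902-83011151, strand +: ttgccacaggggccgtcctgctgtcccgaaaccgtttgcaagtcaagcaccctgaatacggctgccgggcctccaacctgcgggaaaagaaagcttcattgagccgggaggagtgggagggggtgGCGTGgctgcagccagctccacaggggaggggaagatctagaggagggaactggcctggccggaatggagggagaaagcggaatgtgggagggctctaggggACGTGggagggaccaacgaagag
Loxl1, chr9:58220496-58220745, strand -: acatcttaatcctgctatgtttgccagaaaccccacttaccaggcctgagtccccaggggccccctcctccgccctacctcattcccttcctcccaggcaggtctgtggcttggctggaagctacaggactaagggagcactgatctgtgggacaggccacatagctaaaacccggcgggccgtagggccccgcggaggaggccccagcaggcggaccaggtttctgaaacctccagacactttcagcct

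These 3 windows contain no annotated exon of their own gene. The P4ha1 window holds GCGTG at 137 and 100 bases before the start, the Loxl3 window holds GCGTG at 125 and ACGTG at 23 bases before the start, and the Loxl1 window holds neither. Among the 10 members, 6 windows hold at least 1 of the cores, and so do 3 of the windows of the 6 members higher after TAC in control hearts. Of 16094 promoters of the same length, 48.7% hold at least 1 of them, 19.6% for ACGTG and 37.7% for GCGTG. A match describes the letters of the window and does not show that a factor binds there.

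The libraries held between 22.5 and 35.8 M reads (M, mega), of which mitochondrially encoded genes took 11.2 to 28.4%. Ribosomal RNA and 7SK, summed with Rmrp, Rpph1 and Gm26917, took 23.4% of reads in control TAC replicate 2 and 0.509 to 4.19% in the other libraries. Sirt5 was at 85.6 to 259 normalized counts in 10 cSirt5-/- hearts and at 388 to 807 in control hearts, but the libraries labelled cSirt5-/- TAC replicates 2 and 4 held 886 and 499.1. By the ratio of antisense to sense reads over 273 overlapping gene pairs, the libraries form 2 sets that the labels do not name. Set 1 holds 4 of 6 cSirt5-/- Sham hearts and 2 of 6 hearts in each other group. The number in each library's label, read here as an animal number, was used to sort the hearts into 3 series. The labels name no such series, and no group has hearts of all of them. Among cSirt5-/- hearts only series 2 holds both surgeries, with 4 hearts after TAC and 2 after Sham. In whole-heart RNA, a change in the number of cells of a type and a change in RNA per cell cannot be told apart.

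Serpinh1 had the highest level per transcript length of the 10 genes in every group, and P4ha3 the lowest. The level is given as normalized count (reads divided by the size factor of the library) per kilobase of the canonical transcript. Serpinh1 (ENSMUSG00000070436, chromosome 7 of GRCm39, 98994583 to 99002446) averaged 2726 ± 771 per kilobase in cSirt5-/- TAC, 2242 ± 449 in control TAC, 2143 ± 373 in cSirt5-/- Sham and 1866 ± 261 in control Sham hearts (SD, n = 6 each). P4ha3 (ENSMUSG00000051048, chromosome 7, 99934727 to 99968906), which encodes the least studied alpha subunit of prolyl 4-hydroxylase, averaged 5.15 ± 2.69, 5.88 ± 6.96, 4.36 ± 2.18 and 1.38 ± 2.20 per kilobase in the same groups.

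Between these extremes, the order in control Sham hearts was P4ha2 (648 ± 87 per kilobase), P4ha1 (530 ± 136), Plod1 (461 ± 78), Loxl1 (352 ± 84), Plod2 (250 ± 23), Loxl2 (86 ± 22), Loxl3 (47 ± 31) and Lox (44 ± 30), with SD and n = 6. The ranges of P4ha2, P4ha1 and Plod1 overlapped one another, as did those of Loxl2, Loxl3 and Lox, so that the order within each of these trios lies inside the spread of the hearts. The range of Loxl1 (308 to 523) also overlapped those of Plod1 (383 to 602) and P4ha1 (390 to 763). Loxl1 was thus the most abundant lysyl oxidase per length, and P4ha1 and P4ha2 lay at similar levels.

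**Figure D1:**
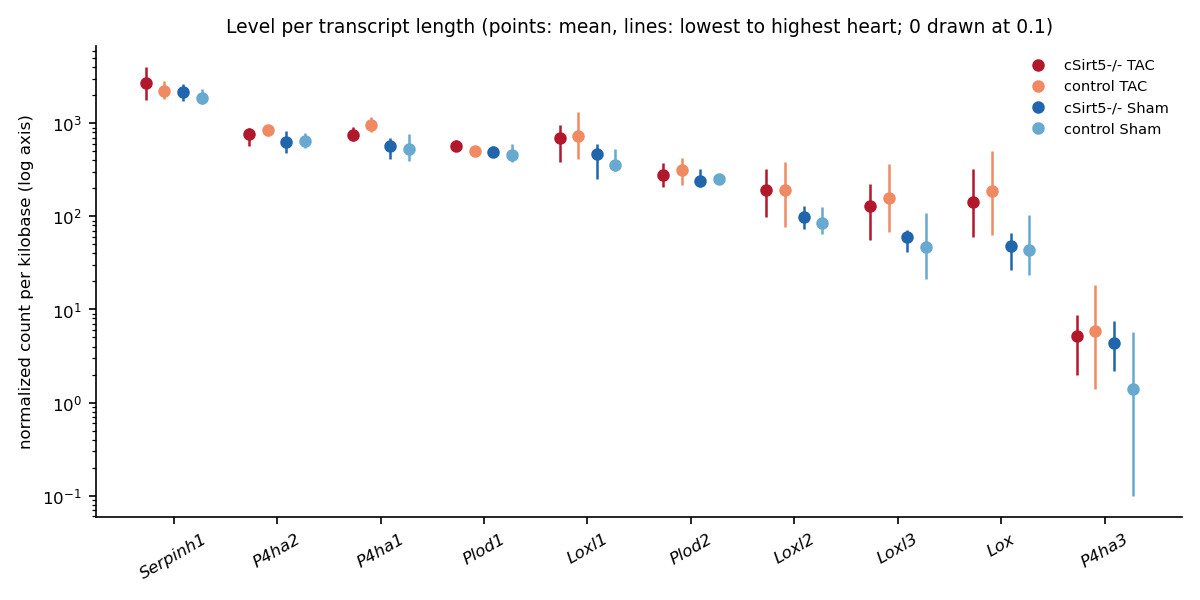
Normalized count per kilobase of transcript (log axis) of the 10 genes, ordered by the control Sham mean, in cSirt5-/- TAC, control TAC, cSirt5-/- Sham and control Sham hearts. Points are means of 6 hearts, lines run from the lowest to the highest heart, and the single 0 (P4ha3 in a control Sham heart) is drawn at 0.1. Serpinh1 stands above all others and P4ha3 far below the rest.

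In control hearts, TAC was followed by higher levels of all 4 lysyl oxidase genes, of P4ha1 and of P4ha3. At an adjusted p under 0.1 and more than 1.5-fold in limma, 6 of 10 genes were higher and 0 lower, against a background of 7.03% of all 24239 genes called, 3.78% higher and 3.26% lower. All 10 log2 fold changes were positive, with a median of 0.92, where the median over all genes was 0.01. The edgeR and DESeq2 tests on recovered reads called the same 6 genes. Within library set 2 alone, Lox, Loxl1, Loxl3 and P4ha1 passed, and within set 1 alone, with 2 hearts against 2, none did.

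Lox, the founding lysyl oxidase, had the highest log2 fold change of the 10 in limma at a pseudocount of 1, while P4ha3 was above it in DESeq2 (2.11 against 2.10) and at a pseudocount of 0.5 (2.09 against 1.86). The gene (ENSMUSG00000024529) lies on chromosome 18 from 52649139 to 52662939. Its normalized count had a lowest value of 300.2, a median of 575 and a highest value of 2422 in control TAC hearts, against 111, 161 and 498 in control Sham hearts. All 6 control TAC hearts lay above the control Sham median, but only 3 lay above the highest Sham heart, so the groups overlapped. The log2 fold change was 1.85 (SE 0.43, 95% interval 0.97 to 2.74, adjusted p = 0.00498 in limma). Within library sets 1 and 2 it was 2.14 and 1.71.

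Loxl3, a lysyl oxidase with scavenger receptor domains, behaved much like Lox. On chromosome 6 (ENSMUSG00000000693, 83011154 to 83029543), it held 277, 434 and 1497 normalized counts as lowest, median and highest value in control TAC hearts, and 86.3, 162 and 447 in control Sham hearts. The groups overlapped, with 3 TAC hearts above every Sham heart. TAC over Sham gave a log2 fold change of 1.66 (SE 0.37, adjusted p = 0.00363 in limma), and 2.07 and 1.45 within sets 1 and 2. Its exons overlap those of Htra2 on the opposite strand, and whether the counting used strand is not stated in the sources used here, although the library kit was directional.

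Loxl1, which in mice is needed for elastic fibre renewal, and Loxl2, another member with scavenger receptor domains, had smaller changes. Loxl1 (ENSMUSG00000032334, chromosome 9, 58195021 to 58220469) was at 1364 to 4451 normalized counts (median 2133) in control TAC hearts and at 1024 to 1741 (median 1060.2) in control Sham hearts. Loxl2 (ENSMUSG00000034205, chromosome 14, 69846517 to 69933283) was at 410.4 to 2035 (median 926) in control TAC hearts and at 340.3 to 677 (median 428) in control Sham hearts. In each of the pair, 5 of 6 TAC hearts lay above the highest Sham heart. The log2 fold changes were 0.97 (SE 0.25, adjusted p = 0.0119 in limma) for Loxl1 and 1.05 (SE 0.27, adjusted p = 0.01) for Loxl2. Loxl2 exons overlap those of R3hcc1 on the other strand, and the same holds for Lox with Gm41724, Loxl1 with Gm57034 and Plod2 with B430319G15Rik. The 0.79 of Loxl2 within set 2 alone did not pass (adjusted p = 0.16).

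The mix of lysyl oxidases is given as a description, with no test. Of the summed per-length level of the 4 genes, Lox made up 12.97 ± 5.15% in control TAC and 7.7 ± 2.5% in control Sham hearts, and Loxl1 made up 59.9 ± 6.1% and 67.5 ± 3.9% (SD, n = 6 each). In cSirt5-/- hearts the share of Lox was 11.8 ± 3.2% after TAC and 7.0 ± 0.9% after Sham. Loxl1 held the largest share in all 24 hearts, at 51.6% or more.

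P4ha1, which encodes the widely expressed alpha subunit of prolyl 4-hydroxylase, was the member with the smallest adjusted p and the only one whose groups did not overlap. On chromosome 10 (ENSMUSG00000019916, 59159118 to 59209126), it held 2443, 2819.6 and 3494 normalized counts as lowest, median and highest value in control TAC hearts, and 1176, 1534 and 2302 in control Sham hearts. Over all genes, 2.46% had every control TAC heart above every control Sham heart, and 2.79% had every one below. Its log2 fold change was 0.86 (SE 0.15, 95% interval 0.56 to 1.16, adjusted p = 0.000204 in limma).

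P4ha2, the other main alpha subunit, was at 1666 to 2189 normalized counts (median 1917.5) in control TAC and at 1250.2 to 1789 (median 1404) in control Sham hearts. The gene (ENSMUSG00000018906) lies on chromosome 11 from 53990921 to 54022491. Its log2 fold change of 0.38 (SE 0.12) passed the adjusted p (0.0434 in limma) but not the 1.5-fold limit. P4ha1 made up 52.7 ± 4.3% of the summed per-length level of the alpha subunits in control TAC hearts, against 44.5 ± 4.0% in control Sham hearts (SD, n = 6 each).

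P4ha3 was close to the limit of detection. Its normalized counts were 23.1, 3.37, 3.66, 6.77, 44.5 and 3.40 in control TAC replicates 1 to 6, and 13.9, 0, 0.949, 0.987, 0.901 and 3.23 in control Sham replicates 1 to 6. A pair of TAC hearts, replicates 1 and 5, stood above all Sham hearts, and the other 4 lay below control Sham replicate 1. The log2 fold change on the scale of log2(count + 1) was 1.78 (SE 0.61, adjusted p = 0.0626 in limma). It lost its call at a pseudocount of 10 (0.69, adjusted p = 0.16), without control TAC replicate 1 (1.51, adjusted p = 0.167) or replicate 5 (1.33, adjusted p = 0.203), and without any one of control Sham replicates 2 to 5 (1.49 to 1.68, adjusted p = 0.113 to 0.164). The call was also lost with only the groups compared in the fit (adjusted p = 0.156 in limma), with the animal-number series as a term (1.64, adjusted p = 0.136) and within either library set.

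The lysyl hydroxylases and the chaperone did not pass. Plod1 (ENSMUSG00000019055, chromosome 4, 147994210 to 148021224), whose product hydroxylates lysines of the collagen helix, was at 2699 to 3216 normalized counts in control TAC and at 2254 to 3542 in control Sham hearts, with a log2 fold change of 0.16 (95% interval -0.03 to 0.34, adjusted p = 0.341 in limma). Plod2 (ENSMUSG00000032374, chromosome 9, 92424276 to 92490481), whose product hydroxylates lysines of the telopeptides at which crosslinks form, was at 816 to 1580.2 in control TAC and at 834 to 1032 in control Sham hearts. In Plod2, 5 of 6 TAC hearts lay above the highest Sham heart, and the log2 fold change was 0.31 (95% interval 0.01 to 0.62, adjusted p = 0.223). Serpinh1 was at 5065 to 8032 in control TAC and at 4558 to 6632 in control Sham hearts, with a log2 fold change of 0.25 (95% interval -0.06 to 0.56, adjusted p = 0.366).

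**Figure D2:**
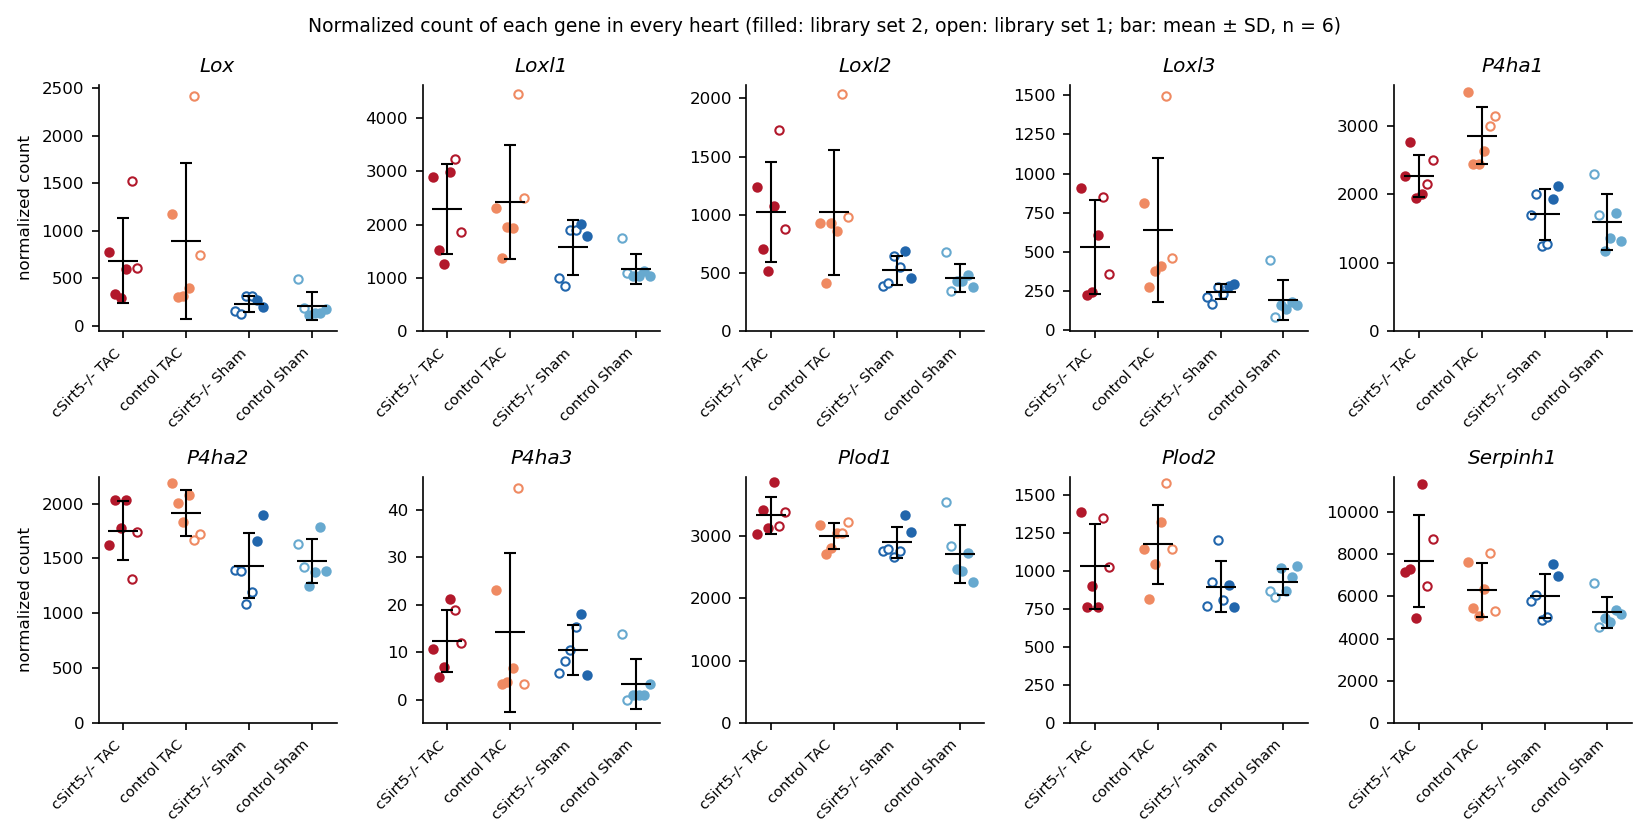
Normalized count of each gene in every heart of the cSirt5-/- TAC, control TAC, cSirt5-/- Sham and control Sham groups, with mean ± SD (n = 6) as bars and open or filled points for library sets 1 and 2. In P4ha1 all control TAC hearts lie above all control Sham hearts, whereas the lysyl oxidases overlap and 1 control TAC heart, replicate 5, reaches 2422 for Lox.

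In cSirt5-/- hearts, none of the 10 genes passed the same test for TAC against Sham. None of the 10 had groups that did not overlap (0.338% of all genes higher and 0.553% lower). Over all genes, 0.672% were called in this comparison, 0.252% higher and 0.421% lower. All 10 log2 fold changes were positive, with a median of 0.37 (-0.01 over all genes), and 8 had an unadjusted p under 0.05 in limma. The edgeR test called 1 of the 10 (Loxl2, log2 fold change 0.99, adjusted p = 0.0996), and the DESeq2 test called Lox (1.58, adjusted p = 0.0617) and Loxl2 (0.97, adjusted p = 0.0538).

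Lox was at 289.6 to 1525 normalized counts (median 600.2) in cSirt5-/- TAC and at 127 to 315 (median 237) in cSirt5-/- Sham hearts. In this gene, 5 of 6 TAC hearts lay above the highest Sham heart. The log2 fold change was 1.43 (SE 0.43, 95% interval 0.54 to 2.32, adjusted p = 0.14 in limma). Within library sets 1 and 2 it was 2.19 and 0.97. With library set or animal-number series as a term the change passed, at 1.73 (adjusted p = 0.0332) and 2.27 (adjusted p = 0.00758).

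Loxl2 was at 519.8 to 1727 normalized counts (median 974) in cSirt5-/- TAC and at 389 to 688 (median 506) in cSirt5-/- Sham hearts, with 5 of 6 TAC hearts above every Sham heart. Its log2 fold change was 0.89 (SE 0.27, adjusted p = 0.132 in limma), and it passed with library set (1.01, adjusted p = 0.0649) or series (1.38, adjusted p = 0.0115) as a term. Loxl3 was at 226 to 906 in cSirt5-/- TAC and at 170.0 to 292 in cSirt5-/- Sham hearts, with a log2 fold change of 0.93 (adjusted p = 0.315). Loxl1 was at 1264 to 3223 in cSirt5-/- TAC and at 841 to 2004 in cSirt5-/- Sham hearts, with a log2 fold change of 0.53 (adjusted p = 0.419). Loxl1 and Loxl3 passed only with the animal-number series as a term (1.16, adjusted p = 0.0103, and 1.41, adjusted p = 0.0871).

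P4ha1 was at 1940.3 to 2761 normalized counts (median 2211) in cSirt5-/- TAC and at 1247 to 2116 (median 1817) in cSirt5-/- Sham hearts. All 6 TAC hearts lay above the Sham median and 4 above every Sham heart. The log2 fold change was 0.43 (SE 0.15, 95% interval 0.13 to 0.73, adjusted p = 0.207 in limma), which is under the 1.5-fold limit as well. Serpinh1 was at 4962 to 11312 in cSirt5-/- TAC and at 4857 to 7508 in cSirt5-/- Sham hearts (0.32, adjusted p = 0.419). P4ha2 (0.30), Plod1 (0.20), P4ha3 (0.20) and Plod2 (0.17) had the smallest log2 fold changes, with adjusted p = 0.318, 0.378, 0.929 and 0.693 in limma.

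**Figure D3:**
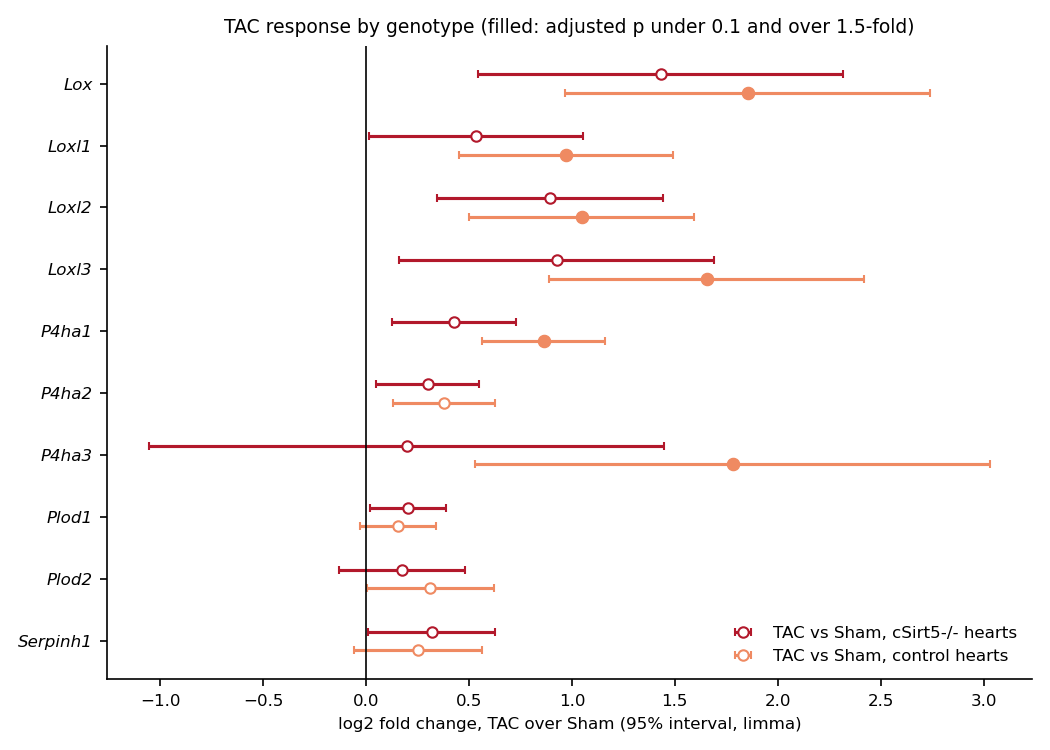
Log2 fold change of TAC over Sham with its 95% interval from limma for each gene, in cSirt5-/- hearts (dark red, upper of each pair) and in control hearts (orange, lower of each pair). Filled points mark an adjusted p under 0.1 with more than 1.5-fold change. All 6 filled points belong to control hearts, and the 2 intervals of every gene overlap.

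The difference between genotypes in the TAC response was tested as an interaction. None of the 10 genes passed in limma, edgeR or DESeq2, and 1 had an unadjusted p under 0.05 in limma, where 0.0908% of all genes were called, 0.0536% higher and 0.0371% lower. That gene was P4ha1, whose response in cSirt5-/- hearts minus that in control hearts was -0.44 on the log2 scale (95% interval -0.86 to -0.01, unadjusted p = 0.0441, adjusted p = 0.489 in limma). Within library sets 1 and 2 the difference was -0.03 and -0.84. For Lox the difference was -0.42 with an interval of -1.68 to 0.83, which includes both no difference and a large one. With the animal-number series as a term it was 0.72. Of the 10 differences, 8 were negative, with a median of -0.29, against -0.03 over all genes. The interaction and both TAC comparisons use the same hearts and are not independent.

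After Sham surgery, cSirt5-/- and control hearts differed in none of the 10 genes at the threshold in limma, edgeR or DESeq2, where 2.03% of all genes were called, 1.48% higher and 0.549% lower. All 10 overlapped between the genotypes (1.14% of all genes did not overlap and were higher, 1.31% lower). In 8 of 10 genes the log2 fold change was positive, with a median of 0.20, and 1 had an unadjusted p under 0.05. P4ha3 was at 5.59, 8.15, 10.5, 15.3, 18.01 and 5.19 normalized counts in cSirt5-/- Sham replicates 1 to 6, and in control Sham hearts at the values given above, between 0 and 13.9. All 6 cSirt5-/- hearts lay above the control median of 0.968 and only 2 above control Sham replicate 1. In limma the log2 fold change was 1.92 (SE 0.61, 95% interval 0.66 to 3.17, adjusted p = 0.103 in limma), and without control Sham replicate 1 it was 2.40 (adjusted p = 0.0295). At a pseudocount of 10 it was 0.65 (adjusted p = 0.27 in limma), and 1.197 once the series of animal numbers was a term (adjusted p = 0.698). The remaining 9 genes lay between -0.06 and 0.50, with Loxl3 at the upper end (95% interval -0.26 to 1.27).

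For 7 of the 10 genes, the sign of the Sham difference was opposite in the library sets. Within sets 1 and 2, the log2 difference of cSirt5-/- over control was -0.54 and 0.74 for Lox, -0.06 and 0.85 for Loxl1, -0.38 and 0.55 for P4ha1 and -0.21 and 0.37 for Plod1. P4ha3 (1.42 and 2.20), Loxl3 (0.16 and 0.87) and Loxl2 (0.02 and 0.39) were positive in both sets. Set 1 holds 4 cSirt5-/- and 2 control hearts of this comparison, and set 2 the reverse.

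After TAC, none of the 10 genes differed between cSirt5-/- and control hearts in limma, edgeR or DESeq2, where 3.25% of all genes were called, 1.93% higher and 1.32% lower. All 10 again overlapped (1.24% of all genes did not overlap and were higher, 1.7% lower). In limma, 1 gene had an unadjusted p under 0.05, and 4 of 10 log2 fold changes were positive, with a median of -0.10. P4ha1 had the lowest value, -0.33 (95% interval -0.63 to -0.03, adjusted p = 0.192). All 6 cSirt5-/- TAC hearts lay below the control TAC median of 2819.6, with the groups overlapping between 2443 and 2761. The difference was -0.40 in set 1 and -0.30 in set 2, and -0.36 (adjusted p = 0.303) without the cSirt5-/- libraries labelled replicates 2 and 4.

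Serpinh1 and Plod1 had positive differences after TAC that did not pass the test. Serpinh1 averaged 7659 ± 2165.8 normalized counts in cSirt5-/- TAC and 6300.3 ± 1263 in control TAC hearts (SD, n = 6 each), a log2 fold change of 0.26 (95% interval -0.05 to 0.57, adjusted p = 0.361 in limma). Plod1 averaged 3325 ± 300 and 2992 ± 204 in these groups (0.15, 95% interval -0.03 to 0.34). In each, 5 of 6 cSirt5-/- hearts lay above the control median. Without the cSirt5-/- libraries labelled replicates 2 and 4, of which replicate 4 was the highest for both genes, the differences were 0.11 for Serpinh1 and 0.09 for Plod1. For the lysyl oxidases the differences were -0.16 (Lox), -0.07 (Loxl1), 0.05 (Loxl2) and -0.23 (Loxl3), and the interval for Lox, -1.05 to 0.72, is wide.

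The spread between hearts of 1 group was large for Lox and P4ha3 and small for Plod1. The coefficient of variation of Lox was 65.4% in cSirt5-/- TAC, 91.7% in control TAC, 35.6% in cSirt5-/- Sham and 69.2% in control Sham hearts. That of Plod1 was 9.02%, 6.83%, 8.82% and 16.9% in the same groups, and that of P4ha3 was 52.2%, 118%, 50.1% and 159%. For the other lysyl oxidases it ran from 19.8% (Loxl3 in cSirt5-/- Sham hearts) to 71.8% (Loxl3 in control TAC hearts). The SD of Lox on the log2 scale was 0.87 in cSirt5-/- TAC and 1.197 in control TAC hearts. Across the 10934 genes averaging 100 normalized counts or more, the median SD was 0.24 and 0.18 in those groups.

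Some hearts were extreme in their group for many of the genes. Control TAC replicate 5 was the highest of its group for 7 of the 10 genes. Control TAC replicate 2, the library with the highest summed share of ribosomal RNA and 7SK, was the lowest for 7. Control Sham replicate 1 was the highest of its group for 8, with 498 normalized counts of Lox where the other 5 control Sham hearts lay between 111 and 186. Among cSirt5-/- TAC hearts, replicate 5 was highest for Lox, Loxl1 and Loxl2, replicate 4 for P4ha2, P4ha3, Plod1 and Serpinh1, and replicate 3 lowest for 5 genes. Without both control TAC replicate 5 and control Sham replicate 1, a setting chosen after seeing the data, 6 genes were called higher after TAC in control hearts.

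**Figure D4:**
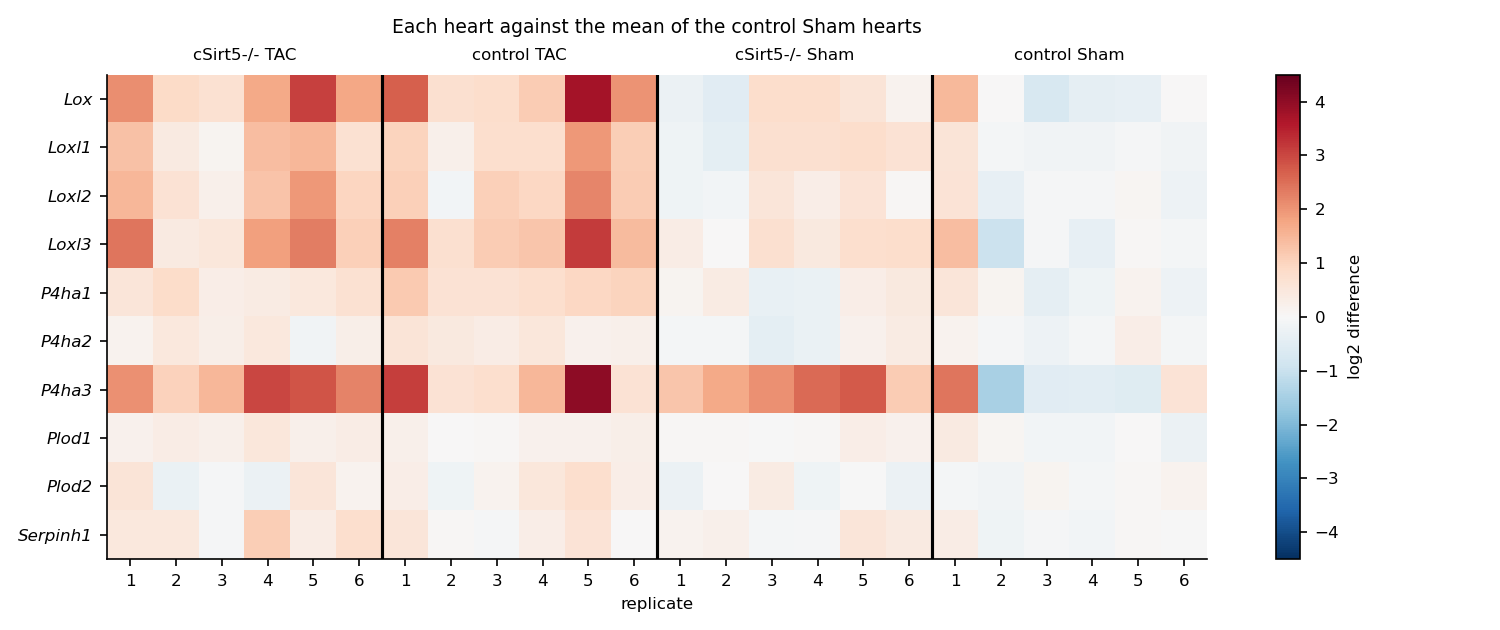
Log2 difference of each of the 24 hearts (columns, replicates 1 to 6 of cSirt5-/- TAC, control TAC, cSirt5-/- Sham and control Sham) from the mean of the control Sham hearts, for the 10 genes (lines). Red is higher and blue lower. Control TAC replicate 5 and control Sham replicate 1 stand out within their groups, and Lox, Loxl1, Loxl2 and Loxl3 change colour together.

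Over the 24 hearts, the 4 lysyl oxidases followed one another, with Pearson correlations of 0.91 to 0.93 between each pair on the log2 scale. P4ha1 followed P4ha2 (0.78), and Plod1 followed Serpinh1 (0.76). Plod2 correlated with the lysyl oxidases at 0.57 to 0.69, and Plod1 (0.55 to 0.59), Serpinh1 (0.56 to 0.64) and P4ha1 (0.54 to 0.67) did so similarly. P4ha3 followed them more closely (0.70 to 0.79) and P4ha2 less (0.26 to 0.36). Plod2 followed neither Plod1 (-0.05) nor Serpinh1 (0.08). These values describe hearts that share group, depth and library set, and carry no test.

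The genes most like Lox among 10923 with a mean of at least 100 were Fstl1 (Pearson correlation 0.95), Mrc2 (0.95), Ace (0.94), Bgn (0.94) and Postn (0.94). Without control TAC replicate 5 and cSirt5-/- TAC replicate 5, the hearts farthest from the median of Lox, these correlations were 0.91 to 0.93. Those most like Plod2 were Naalad2 (0.86), Sdc2 (0.85), Ecm2 (0.85), Tenm3 (0.85) and Qpct (0.84), so that no gene is among the 5 nearest of both. Without control TAC replicate 5 and cSirt5-/- TAC replicate 1, the hearts farthest from the median of Plod2, its correlations fell to 0.77 to 0.79. Bgn encodes the matrix proteoglycan biglycan, Postn encodes periostin, a matricellular protein of activated fibroblasts, and Mrc2 encodes a collagen uptake receptor.

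**Figure D5:**
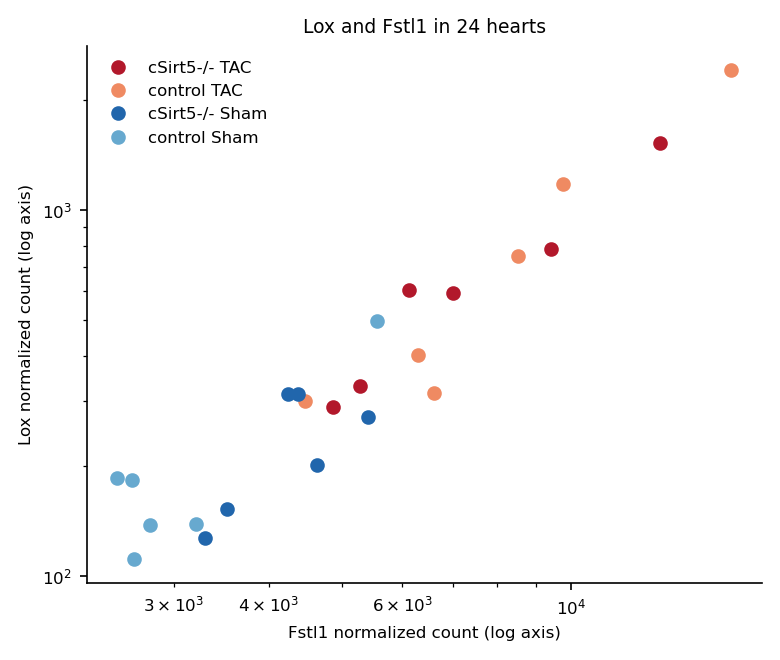
Normalized count of Lox against that of Fstl1 in the 24 hearts (both axes log), coloured by group. The points lie along 1 line, from control Sham hearts with 111 counts of Lox at the low end to control TAC replicate 5 with 2422 at the high end, and TAC and Sham hearts overlap in the middle.

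Of 27 other genes of collagen biosynthesis, 7 were higher and 1 lower after TAC in control hearts, with a median log2 fold change of 0.26. The highest were P3h2, a prolyl 3-hydroxylase (1.18), Loxl4, the remaining lysyl oxidase (1.05), Adamts2, a procollagen N-proteinase (0.97), and Tgm2, a transglutaminase that also crosslinks matrix proteins (0.94). The lower gene, named after its value was seen, was P3h4 (-0.86), whose product works with lysyl hydroxylase. In cSirt5-/- hearts 1 of the 27 was higher after TAC, Sparc, which encodes a collagen-binding glycoprotein (0.72, adjusted p = 0.0898 in limma). The interaction was called for none of the 27. After Sham surgery, 2 were higher in cSirt5-/- than in control hearts, Pcolce (0.69) and Pcolce2 (0.64), enhancers of procollagen C-proteinase, and after TAC none differed between genotypes.

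Of 11 fibrillar collagen and elastin genes, the substrates of these enzymes, 4 were higher and 0 lower after TAC in control hearts, at log2 fold changes of 1.36 for Col5a2, 0.99 for Col1a1, 0.95 for Col1a2 and 0.67 for Col5a1. In cSirt5-/- hearts 1 was higher, Col5a2 (1.06, adjusted p = 0.0788 in limma). Of 7 basement membrane collagen genes, 5 were higher in control hearts after TAC and none in cSirt5-/- hearts. In cSirt5-/- hearts all 7 log2 fold changes were positive, with a median of 0.25. The interaction was called for none of the 11 fibrillar and elastin genes and none of these 7. After TAC, Col4a3 (-0.87) and Col4a4 (-0.70) were lower in cSirt5-/- than in control hearts. Within library set 1 alone, 0 of the fibrillar genes passed in control hearts, and within set 2 alone 0 of the basement membrane genes.

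Among genes known to regulate this pathway, 5 of 11 of TGF-beta signalling and its early targets were higher after TAC in control hearts, led by Ltbp2 (3.13), Ccn2 (2.38) and Tgfb2 (1.72), and none in cSirt5-/- hearts. In cSirt5-/- hearts 8 of 11 log2 fold changes were positive, with a median of 0.19. The interaction was called for none of the 11. Between genotypes, Ccn2 was higher in cSirt5-/- hearts after Sham surgery (1.502) and Tgfb2 lower in cSirt5-/- hearts after TAC (-0.72). Of 14 hypoxia-responsive genes, 1 was higher in control hearts (Car9, 1.67, adjusted p = 0.0919 in limma), and in cSirt5-/- hearts 1 was lower (Adm, -0.60). The response of Adm also differed between genotypes (-0.96, adjusted p = 0.0868 in limma), and after TAC Ankrd37 was higher in cSirt5-/- than in control hearts (0.67). Of 15 genes of endoplasmic reticulum stress, where HSP47 resides, none passed after TAC in either genotype. Between genotypes, 1 of that list was called, Sdf2l1, which was higher in cSirt5-/- hearts both after Sham surgery (0.78) and after TAC (1.00). Of the 15 log2 fold changes between genotypes after Sham surgery, 13 were positive, with a median of 0.19 and 3 at an unadjusted p under 0.05 in limma. After TAC 13 of 15 were positive as well, with a median of 0.30 and 9 at an unadjusted p under 0.05 in limma. Of 10 heat shock genes, 2 were higher after TAC in control hearts and none in cSirt5-/- hearts, and the interaction was called for none.

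Most markers of fibroblasts were higher on average after TAC in control hearts, as the lysyl oxidases were. Log2 fold changes were positive for 7 of 8 markers of activated fibroblasts and for 7 of 8 of fibroblasts in general. Acta2 averaged 2195 normalized counts in control TAC and 3063 in control Sham hearts, and Dpt 1812 and 2142. Of 8 markers of activated fibroblasts, 6 were higher after TAC in control hearts and none in cSirt5-/- hearts. In cSirt5-/- hearts 7 of 8 log2 fold changes were positive, with a median of 0.89 and 4 at an unadjusted p under 0.05 in limma. The interaction was called for none of the 8. The summed normalized count of these markers had a lowest, median and highest value of 7828, 21068 and 60297 in control TAC hearts. In control Sham hearts the values were 3652, 5510.3 and 16622. In cSirt5-/- hearts the sums were 9131, 18089 and 33510.0 after TAC, against 7063, 8862 and 11451 after Sham. The highest sums of the control groups belonged to control TAC replicate 5 and control Sham replicate 1, and the lowest of control TAC to replicate 2. Of 8 markers of fibroblasts in general, 3 were higher in control hearts, with sums of 49857 to 79177 after TAC and 48087 to 59877 after Sham. Between genotypes, 1 marker of activated fibroblasts was called higher in cSirt5-/- hearts after Sham surgery and 1 after TAC. None of the markers of fibroblasts in general was called between genotypes. The part of fibroblast number in the results on collagen enzymes was not tested.

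Of 10 macrophage markers, none passed after TAC in either genotype. In control hearts, however, all 10 log2 fold changes were positive, with a median of 0.50 and 8 at an unadjusted p under 0.05 in limma. The median was 0.30 for the markers of fibroblasts in general and 2.04 for those of activated fibroblasts. The sum of the macrophage markers was 8473 to 15695 in control TAC hearts and 6916 to 12472 in control Sham hearts. Between genotypes, 5 were higher in cSirt5-/- than in control hearts after Sham surgery, and 2 were higher when both genotypes had undergone TAC. The sum was 11631 to 20467 in cSirt5-/- Sham hearts, against the same control Sham range. The part of macrophage number in these results was not tested. Markers of mesothelium (3 of 6) and of atrial cardiomyocytes (2 of 7) were called higher in cSirt5-/- than in control hearts after Sham. There, all log2 fold changes of both lists were positive, with medians of 2.24 and 3.10. An unadjusted p under 0.05 in limma was found for 5 of 6 and 7 of 7. P4ha3 also had its largest genotype difference there. For TAC against Sham in cSirt5-/- hearts, the medians were -1.76 (0 of 6 positive) and -1.89 (1 of 7 positive). In that comparison 1 atrial marker was called lower. The part of either list in the P4ha3 difference and in the TAC comparison was not tested. Of 8 cardiomyocyte markers, 1 was lower after TAC in control hearts (Tnni3, -0.78), with a median of -0.34 and 1 positive value. Their sum was 1210800 to 2085700 normalized counts in control TAC hearts and 1911600 to 2250600 in control Sham hearts. The lowest sum belonged to control TAC replicate 5, the heart highest for 7 of the collagen enzyme genes, and the part of cardiomyocyte share in the results was not tested.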

How the data were processed

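RNA of 24 whole mouse hearts, 6 in each group, had been extracted with a fibrous tissue kit and made into directional libraries. Per the study's methods and the submitters' processing notes, the authors trimmed paired-end reads with Trim Galore, aligned them to GRCm39 (mm39) with STAR and divided each library's reads per gene by its DESeq2 size factor. What the authors deposited is thus a signal, normalized counts, in 1 table of genes with at least 10 reads. The program that counted reads, its strand setting and the annotation release are not given in the sources used here.

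Dividing the deposited values by the smallest step of each library gave whole reads for 100% of them (tolerance 0.01). The main test was limma 3.58.1 with a trend on log2(normalized count + 1) over all 24 hearts and 24239 genes, in R 4.3.3, with Benjamini-Hochberg adjustment over all genes. A gene was called at an adjusted p under 0.1 and over 1.5-fold. The pseudocount makes fold changes of low genes such as P4ha3 smaller. As alternatives, edgeR 4.0.16 (quasi-likelihood) and DESeq2 1.42.0 were run on the recovered reads, where edgeR called 1730 and DESeq2 1790 genes for TAC against Sham in control hearts. Other alternatives changed the pseudocount, filter, scaling, covariates or hearts. Scripts were tested on simulated data.

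Nothing states that the hearts of a group differ in litter or day, so p-values measure the spread between these hearts. The 10 members and all gene lists were chosen with earlier results of these data known. Named were all members, of each other list at most the 4 called genes with the largest change, and for Lox and Plod2 the 5 genes with the highest Pearson correlation. Promoters were read from GRCm39 at canonical starts of GENCODE vM39, which held 99.2% of the gene IDs. Promoters that overlap an exon of their own gene, that of Lox among them, are not printed. Neither is that of P4ha3, which overlaps no such exon and holds neither core.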

Additional observations from a re-analysis of the deposited data

Results flagged for a closer look

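Of the 40 combinations of gene and group that were examined, 2 had a heart that stood apart. In both it was control Sham replicate 1, against the other 5 control Sham hearts. The Lox level of this heart was 497.7 normalized counts. On the scale of log2(count + 1), the gap to the next heart was 0.659 of the range of the group. Its Loxl1 level was 1741.0 normalized counts, with a gap of 0.833 of the range on the same log2 scale. Both gaps pass Dixon's limit for 6 hearts at the 95% level, which chance alone passes in about 1 in 20 groups. The summed level of activated fibroblast markers was also the highest of its group in this heart, at 16622, and its part in the Lox and Loxl1 values was not tested.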

How the results depend on the processing

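No value that passed the test changed sign under any alternative, but 23 of the 50 member values did so under at least 1, among them 9 of 10 between genotypes after Sham surgery, 5 of 10 after TAC and 7 of 10 interactions, and 1 of 10 for TAC in either genotype. For TAC against Sham in control hearts, the 6 genes called became 0 within library set 1 (2 hearts against 2) and were 5 to 6 when 1 heart was left out. In cSirt5-/- hearts, 0 genes were called in limma, but 1 in edgeR, 2 in DESeq2, 2 with library set as a covariate, 4 with the series of animal numbers as a term, 2 without both control TAC replicate 5 and control Sham replicate 1 (chosen after seeing the data), and 0 to 2 when 1 heart was left out. The calls came without cSirt5-/- TAC replicate 3 (2), control TAC replicate 5 (2) or control TAC replicate 2 (1). After Sham surgery, the 0 genes that differed between genotypes became 1 (P4ha3) with a pseudocount of 0.5, a mean of at least 10, only the groups compared, without the cSirt5-/- libraries at control levels of Sirt5, and without both hearts named above, and were 0 to 1 when 1 heart was left out. Between genotypes after TAC and for the interaction, 0 genes were called under every setting run.

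With the replicate number as a block, 2 genes were called in cSirt5-/- hearts after TAC and 1 between genotypes after Sham surgery. The labels name no pairing by these numbers. Of 36 same-numbered pairs, 10 had a correlation over 0.1, and the range was -0.43 to 0.47. Between cSirt5-/- TAC and control TAC hearts, 4 of 6 same-numbered pairs passed 0.1, against 5 of 30 other pairs. Between cSirt5-/- TAC and cSirt5-/- Sham hearts, 0 of 6 did, against 13 of 30.

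Counts over all genes moved more. Leaving out 1 heart gave 1267 to 1956 genes for TAC in control hearts, 33 to 239 for TAC in cSirt5-/- hearts, 200 to 646 between genotypes after Sham, 408 to 1024 after TAC and 11 to 118 for the interaction. Across the other settings the counts were 1229 to 1801, 0 to 727, 0 to 1656, 24 to 992 and 0 to 268 in the same order. Single library sets gave the lowest count in each comparison, and set 2 alone also the highest between genotypes after Sham (1656) and after TAC (992). The cause was not tested. P4ha3, at 0 to 44.5 normalized counts, is limited by depth.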
